A study of Mus musculus with 9 samples.

Results

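The kallikrein-related peptidases of skin are secreted serine proteases encoded side by side in one gene cluster. The set described here was defined by name as 10 genes, Klk5 to Klk14, and its members were the genes for which the array's platform annotation gave probe sets with 1 symbol. That rule found 5 of the 10, Klk6, Klk7, Klk8, Klk9 and Klk10, among 14507 genes measured in all. They were read by 39 probe sets (a probe set is an exon-level unit of the array): 9 for Klk6, 6 for Klk7, 9 for Klk8, 8 for Klk9 and 7 for Klk10. The other 5, Klk5, Klk11, Klk12, Klk13 and Klk14, were not analysed here.

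These peptidases are made by differentiating keratinocytes as inactive precursors, released at the top of the living layers and activated by removal of a short propeptide. In the cornified layer they cleave the extracellular parts of the corneodesmosomes, the junctions that hold dead cells together, so that cells can be shed. Their activity is held in check by Kazal-type and other protease inhibitors, and some of them also process antimicrobial peptides and signal through a protease-activated receptor. In hair follicles several of them are known from the infundibulum and the inner root sheath.

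The samples were hand dissections of the hair follicle (HF), of the sebaceous gland (SG) attached to it and of the interfollicular epidermis (IFE), the skin between follicles. All came from tail skin of adult wild-type female mice on a C57BL6/CBA background. The study asked which genes mark each of these epidermal compartments. Each of the 9 arrays carried amplified RNA from pooled pieces of 1 compartment, with 3 biological replicates per compartment, and no treatment or engineered allele was named for any group. The labels do not say how many animals were pooled or whether the compartments of one replicate number came from the same animals, so p-values measure the spread between these pooled samples.

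Values are given as log2 of the deposited intensity, taken as the median over a gene's probe sets, and an increase of 1 is a doubling. Array medians lay between 176 and 234 on the linear scale, and no detection calls were used. Marker genes followed the sample titles, whereas the array name in each description named another compartment. The level of the 10 sebocyte markers (mean log2 value relative to each gene's mean over the arrays) was 1.69 to 2.16 on the SG arrays. It was -0.379 to 0.125 on the HF arrays and -1.95 to -1.64 on the IFE arrays, and 7 of the 10 were called higher in HF than in IFE. The level of 8 hair shaft and inner root sheath markers was 2.74 to 3.49 on the HF arrays and -2.73 to -2.65 on the IFE arrays. All SG arrays lay above that IFE range (-1.66 to 1.37), and 5 of these 8 markers were called higher in SG than in IFE. For 6 suprabasal IFE markers the level was 0.578 to 0.882 on the IFE arrays. Resting hair follicle markers (10 genes) were at 0.329 to 0.488 in SG, 0.596 to 0.66 in HF and -1.06 to -0.996 in IFE, and 7 infundibulum and sebaceous duct markers at 0.417 to 0.647, 0.589 to 0.88 and -1.42 to -1.02. Of the resting follicle markers 6 were called higher in SG and 8 in HF than in IFE. So were 5 of the 7 infundibulum and duct markers in each, beside 2.54% of all genes in SG and 2.96% in HF. Langerhans cell markers were lowest in HF (-0.806 to -0.489), melanocyte markers ran from -0.287 to 1.23 in SG, and fibroblast markers stayed between -0.231 and 0.156. A pair of arrays stood apart within their groups. SG replicate 3 held 1.37 for the hair shaft markers against -1.66 and -1.28 on the other SG arrays, and HF replicate 2 held 0.125 for the sebocyte markers against -0.379 and -0.315 and -0.0611 for the suprabasal markers against -0.516 and -0.492. Results that rest on either are given with and without it.

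The measured members fell into 4 patterns over the compartments. Klk10 and Klk6 were highest in HF, intermediate in SG and lowest in IFE, Klk9 was highest in IFE and lowest in SG, Klk7 was low in SG alone, and Klk8 did not pass a test. In limma's moderated F test over the 3 compartments, 4 of the 5 members had a Benjamini-Hochberg adjusted p under 0.05, as did 24.5% of all genes. A difference between a pair of compartments was called where the adjusted p was under 0.05 and the log2 difference reached 1 in either direction. By that rule 2 members were higher and 2 lower in SG than in IFE (2.54% of all genes were called higher and 6.96% lower), 2 were higher and 1 lower in HF than in IFE (2.96% and 3.36%), and none was higher and 3 were lower in SG than in HF (1.81% and 3.30%). The median difference of the 5 members was -0.37 for SG against IFE, -0.20 for HF against IFE and -1.55 for SG against HF, beside -0.063, -0.071 and -0.017 over all genes. Every array of one group lay above or below every array of the other for 2 members higher and 2 lower in SG against IFE (13.2% and 21.7% of all genes), 2 higher and 1 lower in HF against IFE (13.5% and 19.3%), and none higher and 4 lower in SG against HF (12.1% and 17.2%). In tissue pieces like these, fewer cells of a type and less RNA per cell cannot be told apart.

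**Figure D1:**
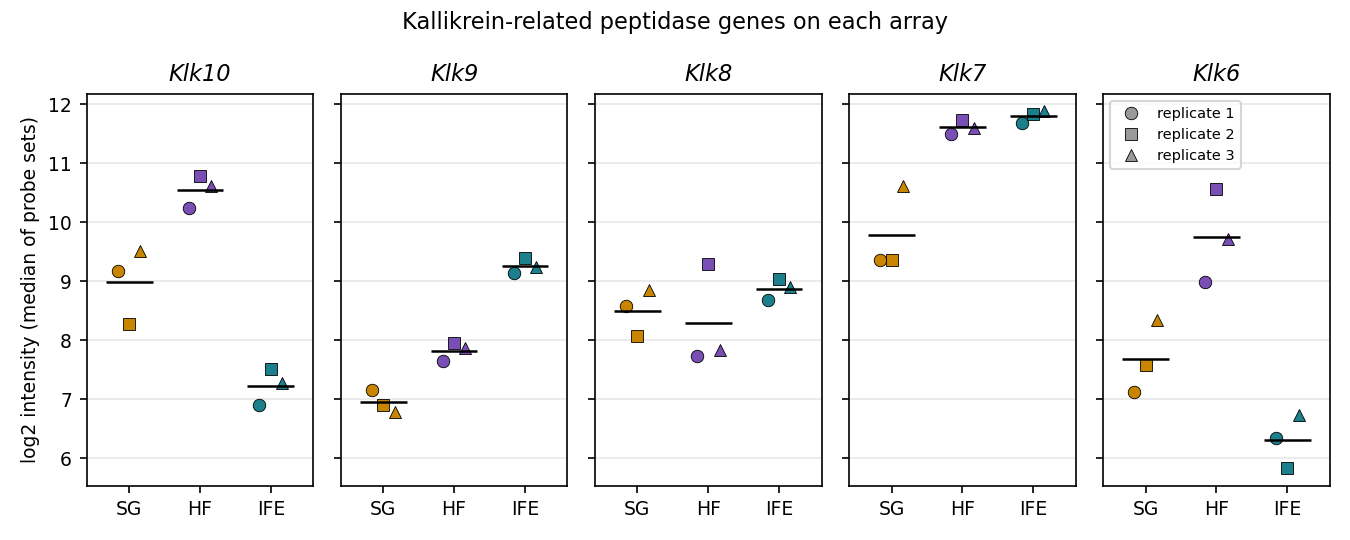
Log2 intensity (median of the probe sets) of the 5 measured members on each of the 9 arrays, by compartment, with 1 point per array, its shape giving the replicate number, and a line at the compartment mean. Klk10 and Klk6 peak in HF, Klk9 peaks in IFE, Klk7 is low in SG, and the 3 compartments overlap for Klk8.

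Because Klk10 and Klk6 were both called higher in SG and HF than in IFE while Klk7, which lies between them, was not, the stretches just upstream of these 3 genes are shown. They come from RefSeq on GRCm38.p6, on the plus strand, and end 1 base before the first annotated base of each gene: 250 bases for Klk10 (chr7:43780804-43781053), 144 for Klk6 (chr7:43824294-43824437) and 250 for Klk7 (chr7:43811044-43811293). The submitters' processing notes name another build, mm9, so these coordinates serve only for the sequences. Capitals mark the letters GGGCGG, the GC box, on either strand.
Klk10: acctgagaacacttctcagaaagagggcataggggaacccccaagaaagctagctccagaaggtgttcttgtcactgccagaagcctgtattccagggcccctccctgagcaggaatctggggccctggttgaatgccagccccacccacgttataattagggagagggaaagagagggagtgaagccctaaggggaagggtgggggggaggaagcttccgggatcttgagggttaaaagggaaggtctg
Klk6: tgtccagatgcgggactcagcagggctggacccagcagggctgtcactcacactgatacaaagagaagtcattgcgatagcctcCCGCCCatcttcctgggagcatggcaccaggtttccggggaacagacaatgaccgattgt
Klk7: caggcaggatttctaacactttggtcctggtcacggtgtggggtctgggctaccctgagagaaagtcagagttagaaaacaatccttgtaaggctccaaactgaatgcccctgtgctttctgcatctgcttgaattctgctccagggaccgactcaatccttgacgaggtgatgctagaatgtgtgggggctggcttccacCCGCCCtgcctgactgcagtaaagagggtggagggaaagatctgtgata
The motifs searched on both strands were TATAAA (the TATA box), TGANTCA (bound by AP-1), GGGCGG and CCAAT. One GC box match lay 60 bases before the Klk6 gene and one 49 bases before Klk7, both on the minus strand, and Klk10 held none of the 4 motifs. Over 27025 promoters GGGCGG occurred in 32.9% of windows of 250 bases and in 15.6% of windows of 144 bases. Each window was the first 250 or 144 bases of a promoter sequence. Windows of 144 bases need not adjoin a gene's start as the Klk6 stretch does, so their shares are not a like background for it. In the windows of 250 bases TATAAA occurred in 13%, TGANTCA in 6.87% and CCAAT in 34.5%, and in those of 144 bases in 7.32%, 3.89% and 19.3%. A match is a run of letters, not a measured site, and the absence of one covers these windows only.

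Klk10, a kallikrein-related gene first known as NES1 from normal epithelial cells, was higher in both HF and SG than in IFE. Its log2 value was 10.24, 10.78 and 10.62 on the HF arrays, 9.18, 8.28 and 9.51 on the SG arrays and 6.90, 7.51 and 7.27 on the IFE arrays. Every HF array lay above every SG array, and every SG array above every IFE array. On the linear scale the compartment means (geometric) were 1490 in HF, 508 in SG and 150 in IFE. The marker levels of the resting follicle, of the infundibulum and duct, of the hair shaft and inner root sheath and of sebocytes were also higher in HF and SG than in IFE. This holds beside Klk6 as well, and the part of these markers in the differences was not tested.

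The rise of Klk10 in HF over IFE was 9.95-fold (log2 difference 3.31 ± 0.29 SE, n = 3 per group, limma adjusted p = 3.62e-05). In SG it was 3.39-fold over IFE (1.76 ± 0.29, adjusted p = 0.00138), and SG was below HF (-1.55 ± 0.29, adjusted p = 0.00605). All 7 of its probe sets were higher in SG than in IFE, by 0.99 to 3.42, and higher in HF than in IFE, by 1.95 to 4.81, and on each of them the groups did not overlap in any comparison. With the brightest probe set in place of the median the HF rise was 1.96, and the differences of SG from IFE (0.99) and from HF (-0.97) fell under the log2 minimum of 1.

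Klk6, a trypsin-like peptidase also named neurosin, showed the same order of compartments with a wider spread. Its log2 value was 8.99, 10.57 and 9.71 on the HF arrays, 7.12, 7.58 and 8.35 on the SG arrays and 6.34, 5.84 and 6.74 on the IFE arrays. The 3 compartments did not overlap. The closest arrays of SG and IFE were 0.38 apart (SG replicate 1 above IFE replicate 3), and the closest of SG and HF differed by -0.64 (SG replicate 3 below HF replicate 1). The geometric means of the intensity were 866 in HF, 205 in SG and 79.1 in IFE.

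Klk6 was 10.9-fold higher in HF than in IFE (3.45 ± 0.40 SE, n = 3 per group, limma adjusted p = 0.000178) and lower in SG than in HF (-2.08 ± 0.40, adjusted p = 0.00658). The smaller rise of SG over IFE, 2.59-fold (1.38 ± 0.40, adjusted p = 0.0278), was not called without SG replicate 2 (adjusted p = 0.0633), without SG replicate 3 (log2 difference 1.04, adjusted p = 0.0797), without IFE replicate 1 (adjusted p = 0.0507) or without IFE replicate 2 (adjusted p = 0.12). It was also lost with the mean over probe sets (0.92) and with a pseudocount of 50 (0.99, adjusted p = 0.0607). SG replicate 3, the highest SG array for Klk6, also held the highest hair shaft markers of the SG arrays, whose part in the rise was not tested. Without SG replicate 3 and HF replicate 2 together, Klk6 was 1.04 higher in SG (adjusted p = 0.0327) and 3.04 higher in HF than in IFE.

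The 9 probe sets of Klk6 were all higher in HF than in IFE, by 1.01 to 4.35, and 8 of them separated the groups fully. Against IFE, SG was higher on 8 of 9, from -0.17 to 1.99, and 4 separated the groups. Within each array the log2 ratio of Klk10 to Klk6, which does not depend on the scaling of the arrays, differed by -0.14 between HF and IFE (exact two-sided permutation p = 0.8, n = 3 per group) and by 0.39 between SG and IFE (exact permutation p = 0.5), where 0.1 is the smallest p that 3 against 3 arrays can give. A p that high does not show that they moved alike.

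Klk9, a less studied peptidase of the family whose gene neighbours Klk10, was highest in IFE and lowest in SG. Its log2 value was 9.14, 9.39 and 9.24 on the IFE arrays, 7.65, 7.95 and 7.87 on the HF arrays and 7.16, 6.91 and 6.78 on the SG arrays. No array of one compartment reached the range of another, and the SD within a compartment was at most 0.194.

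Klk9 was 4.94-fold lower in SG than in IFE (log2 difference -2.31 ± 0.17 SE, n = 3 per group, limma adjusted p = 7.78e-06) and 2.70-fold lower in HF than in IFE (-1.43 ± 0.17, adjusted p = 0.000222). SG lay below HF by 0.87 on the log2 scale (adjusted p = 0.00777), which is under the minimum of 1 and was not called. All 8 probe sets were lower in both SG and HF than in IFE, and the groups did not overlap for 7 of them in SG and 8 in HF. Between SG and HF, 7 of 8 were lower in SG and 4 separated the groups. Taken within each array, the log2 ratio of Klk10 to Klk9 was higher in HF than in IFE by 4.75 and higher in SG than in IFE by 4.07, each at an exact two-sided permutation p of 0.1, the smallest that 3 against 3 arrays allow. Each gene alone already separated these groups, in opposite directions. The ratio therefore had to separate them too, and this p adds no evidence. Klk10 and Klk9 lie next to each other in the order of genes on RefSeq's GRCm38.p6.

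**Figure D2:**
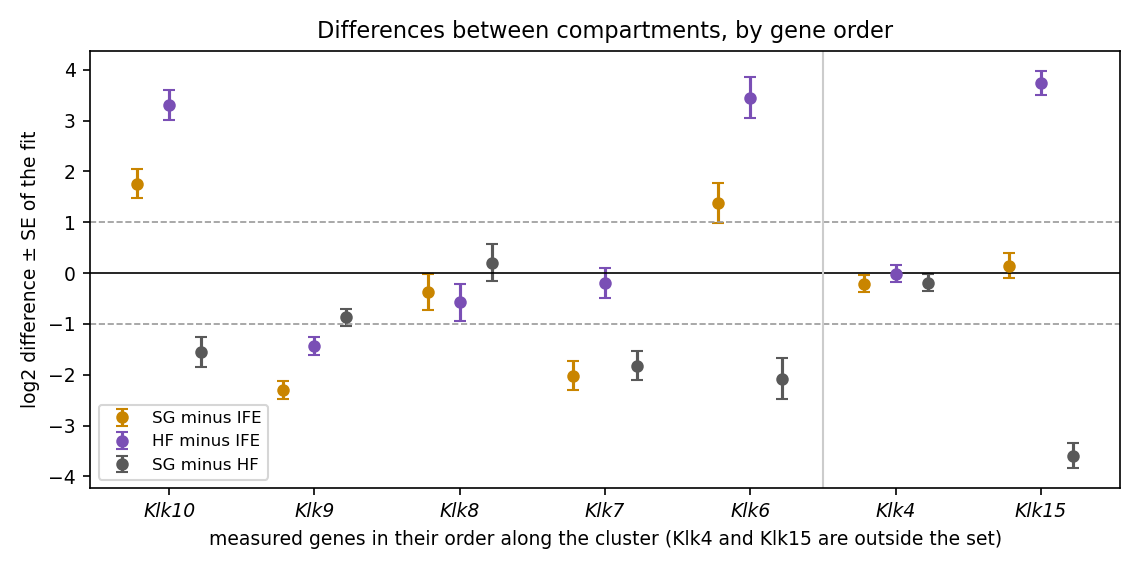
Log2 differences between compartments (points, with the SE of the limma fit as bars, n = 3 arrays per group) of the measured kallikrein-related genes in their order along the cluster, with dashed lines at the log2 minimum of 1. Klk10 and Klk6 at the ends of the measured stretch are above 0 against IFE, and Klk9 and Klk7 between them are at or below 0. Klk4 and Klk15, outside the set, are shown to the right of the vertical line.

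Klk7, the chymotrypsin-like stratum corneum enzyme that cleaves corneodesmosin and desmocollin 1, was at similar levels in HF and IFE and lower in SG. Its log2 value was 9.37, 9.36 and 10.62 on the SG arrays, 11.50, 11.73 and 11.60 on the HF arrays and 11.69, 11.84 and 11.88 on the IFE arrays. All SG arrays lay below all others, while HF replicate 2 overlapped the IFE range.

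Klk7 was 4.05-fold lower in SG than in IFE (-2.02 ± 0.29 SE, n = 3 per group, limma adjusted p = 0.000546) and 3.54-fold lower than in HF (-1.82 ± 0.29, adjusted p = 0.00237). Between HF and IFE the difference was -0.20 ± 0.29 (adjusted p = 0.722), with a 95% interval from -0.82 to 0.43. All 6 probe sets were lower in SG than in IFE, by 0.54 to 2.04, and 5 separated the groups. The exception was the brightest, at a mean log2 value of 12.15 in SG and 12.68 in IFE, and with it as the gene's value Klk7 was not called in SG against IFE (-0.54, adjusted p = 0.111) or against HF (-0.72, adjusted p = 0.068).

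SG replicate 3 held more Klk7 than the other SG arrays, by over 1 on the log2 scale, beside its higher hair shaft markers. Without it and HF replicate 2 the difference of SG from IFE was -2.44 (adjusted p = 1.58e-05) and that of SG from HF -2.18 (adjusted p = 6.9e-05), so the low level in SG was as large without these libraries.

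Klk8, a trypsin-like peptidase also named neuropsin, passed no test. Its log2 value was 8.58, 8.07 and 8.85 on the SG arrays, 7.74, 9.30 and 7.84 on the HF arrays and 8.68, 9.03 and 8.90 on the IFE arrays. The compartments overlapped, and HF replicate 2 was the highest of all 9 arrays while the other HF arrays were the lowest. The F test gave an adjusted p of 0.451.

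The HF difference from IFE was -0.58 ± 0.36 SE for Klk8 (n = 3 per group, limma adjusted p = 0.337, 95% interval -1.36 to 0.20), and that of SG from IFE was -0.37 ± 0.36 (adjusted p = 0.497, interval -1.15 to 0.41). SG and HF differed by 0.21 ± 0.36 (adjusted p = 0.789, interval -0.58 to 0.99). Without HF replicate 2, Klk8 was called lower in HF than in IFE (-1.08, adjusted p = 0.0163). HF replicate 2 was the array with the highest sebocyte and suprabasal markers of the HF group, whose part in this value was not tested. It was also the highest HF array for each of the other 4 members.

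The probe sets of Klk8 did not move as one. Of 9, 7 were lower in SG than in IFE, down to -1.70, and 2 were higher. The groups did not overlap for 4 of the lower and 1 of the higher probe sets. The median of the probe set differences was -0.77, beside -0.37 for the gene value. Probe set 4310685 was higher in SG than in IFE by 0.77, with mean log2 values of 8.11 and 7.34 and no overlap, whereas probe set 4485756 was lower by 1.70, at 6.67 against 8.37, also with no overlap. In HF against IFE, 7 of 9 were lower and 2 higher, from -0.98 to 0.33. The median over the probe sets therefore summarises Klk8 less well than the other members, for which the probe sets of a called difference shared its sign apart from 1 of 9 for Klk6 in SG against IFE.

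**Figure D3:**
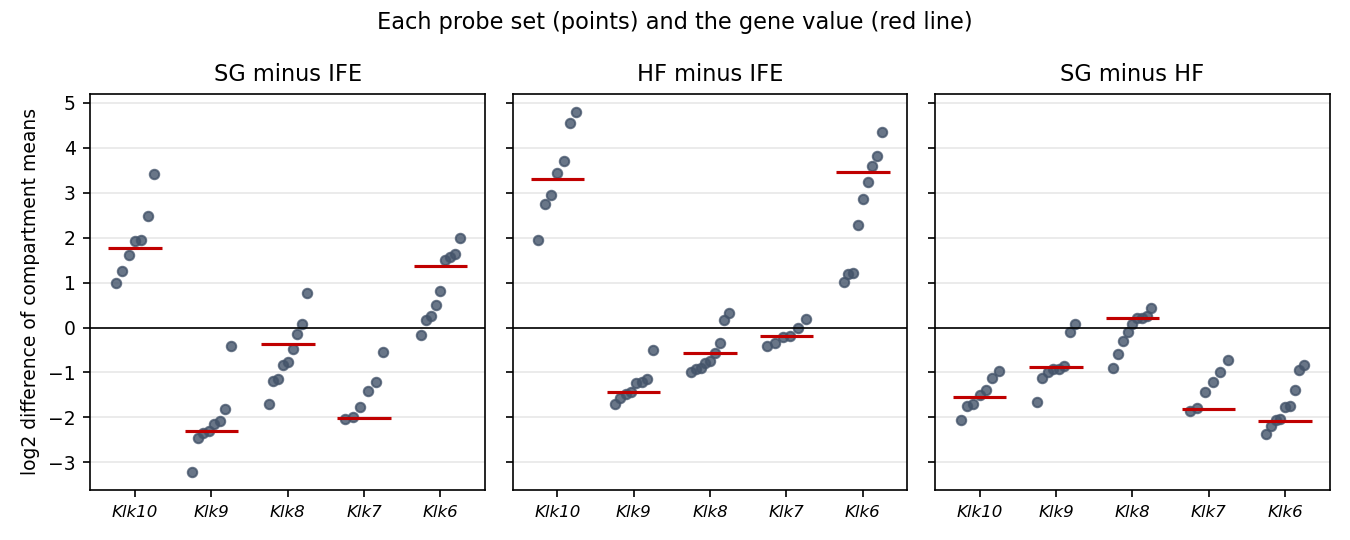
Log2 differences between compartment means for each probe set of the 5 members (points, sorted within a gene) with the gene-level difference as a red line, in 3 panels for SG minus IFE, HF minus IFE and SG minus HF. All probe sets of Klk10 lie above 0 in both comparisons with IFE, those of Klk9 lie below 0, and those of Klk8 lie on both sides.

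Other genes of the pathway were taken from lists chosen by known role. Among inhibitors of these peptidases, 4 of 6 listed were measured. In SG against IFE 1 was called higher and 1 lower (2.54% and 6.96% of all genes). In HF against IFE 1 was called higher and 1 lower (2.96% and 3.36%), and none was called between SG and HF (1.81% and 3.30%). Spink12, a Kazal-type inhibitor, stood at 8.18, 8.17 and 8.40 on the SG arrays, 8.76, 9.27 and 8.93 on the HF arrays and 5.21, 5.67 and 5.55 on the IFE arrays. Its values were thus lowest in IFE, with a rise of 2.77 ± 0.19 in SG and 3.51 ± 0.19 in HF (limma adjusted p = 5.1e-06 and 3.34e-06), which the brightest probe set put at 5.47 and 6.88. Every SG array lay below every HF array (log2 difference -0.73, limma adjusted p = 0.0321), under the log2 minimum. Serpina12, known as vaspin and an inhibitor of KLK7, ran the other way, with 11.19, 11.79 and 11.59 on the IFE arrays against 7.49 to 8.97 on the HF and 7.51 to 8.90 on the SG arrays. It was lower by 3.26 ± 0.40 in SG and by 3.47 ± 0.40 in HF (adjusted p = 0.000208 and 0.000178). Spint1, an inhibitor of membrane-bound and other serine proteases, was 0.90 higher in HF than in IFE (adjusted p = 0.0358), under the log2 minimum. It was called with quantile normalization (1.16) and without IFE replicate 2 (1.07), and the adjusted p was 0.112 with the mean over probe sets and 0.147 with the brightest, and 0.0581 to 0.135 when any 1 HF array, IFE replicate 1 or IFE replicate 3 was left out. Spint2 had an F test adjusted p of 0.157.

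Of 5 listed proteases that activate these or related precursors, 4 were measured. St14, the membrane protease matriptase, was highest in HF at 10.74, 10.33 and 10.86, against 9.25, 9.25 and 9.29 in IFE and 8.69, 8.49 and 9.84 in SG. It was called higher in HF than in IFE (1.38 ± 0.30, limma adjusted p = 0.0104), a call that ended without HF replicate 3 (adjusted p = 0.0535), and lower in SG than in HF (-1.64 ± 0.30, adjusted p = 0.00525). With the letter that ends each array name used as a block, both missed the threshold (adjusted p = 0.0545 and 0.0558). Prss8, or prostasin, was 0.64 lower in SG than in IFE on the log2 scale (adjusted p = 0.0168), under the minimum of 1. The brightest probe set gave -1.13 for Prss8, past the minimum (adjusted p = 0.00616), while the adjusted p rose to 0.0776 with quantile normalization, 0.0771 with the array letter as a block and 0.0661 without SG replicate 2. The meprins Mep1a and Mep1b were not called in any comparison.

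Of 11 listed substrates 8 were measured. None was called higher in any comparison, as were only 1.81% to 2.96% of all genes, so none of 8 says little about substrates. In SG against IFE 2 were called lower (6.96% of all genes), in HF against IFE 1 (3.36%) and in SG against HF 1 (3.30%). The median difference of the 8 substrates was -0.75 in SG and -0.24 in HF against IFE, beside -0.063 and -0.071 over all genes. Dsc1, the desmosomal cadherin desmocollin 1, was at 10.64, 10.26 and 10.74 on the SG arrays, 11.90, 11.66 and 11.86 on the HF arrays and 12.47, 12.79 and 12.65 on the IFE arrays. It fell by 2.09 ± 0.18 in SG against IFE (limma adjusted p = 1.98e-05) and by 1.26 ± 0.18 against HF (adjusted p = 0.00143), an order of compartments like that of Klk9. Dsg1b, a desmoglein read by 1 probe set and close in sequence to its paralogs, was lower by 2.13 in SG and 1.45 in HF than in IFE. Corneodesmosin, Cdsn, and the sphingomyelinase Smpd1 lay 0.97 and 0.88 lower in SG than in IFE on the log2 scale (adjusted p = 0.00202 and 0.00905), under the minimum of 1. Leaving out SG replicate 2 or IFE replicate 2 took Cdsn past it (-1.07 and -1.04), and leaving out SG replicate 1 did so for Smpd1 (-1.02). Quantile normalization gave only -0.56 for Cdsn and -0.47 for Smpd1 (limma adjusted p = 0.0738 and 0.164), and the brightest probe set gave -0.42 for Smpd1 (adjusted p = 0.288).

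Among 16 other kallikrein genes listed, 8 were measured. Of these 1 was called higher in SG than in IFE (2.54% of all genes), 1 higher in HF than in IFE (2.96%) and 1 lower in SG than in HF (3.30%). The gene called in HF was Klk15, which lies beyond Klk4 in the same cluster. It stood at 9.50, 9.61 and 9.84 on the HF arrays, 5.89, 6.04 and 6.23 on the SG arrays and 6.49, 5.46 and 5.77 on the IFE arrays. HF was thus 3.74 ± 0.24 above IFE (limma adjusted p = 5.21e-06) and SG 3.59 ± 0.24 below HF (adjusted p = 3.71e-05), while SG and IFE overlapped. The brightest of its 5 probe sets gave only 0.79 for HF against IFE (adjusted p = 0.0516) and -0.57 for SG against HF (adjusted p = 0.168). Klk4, which lies between Klk5 and Klk15, differed by -0.013 in HF and by -0.21 in SG from IFE and was not called. Klk1b24, of the glandular kallikreins whose near-identical copies 1 probe set may not tell apart, was 1.10 higher in SG than in IFE (adjusted p = 0.00149), and 0.95 without SG replicate 1 and 0.99 without IFE replicate 1. The Klk1b24 difference also fell under the minimum of 1 with a pseudocount of 50 (0.98) and with weights on the arrays (0.99). Klk1b5 and Klk1b8 were not called.

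**Figure D4:**
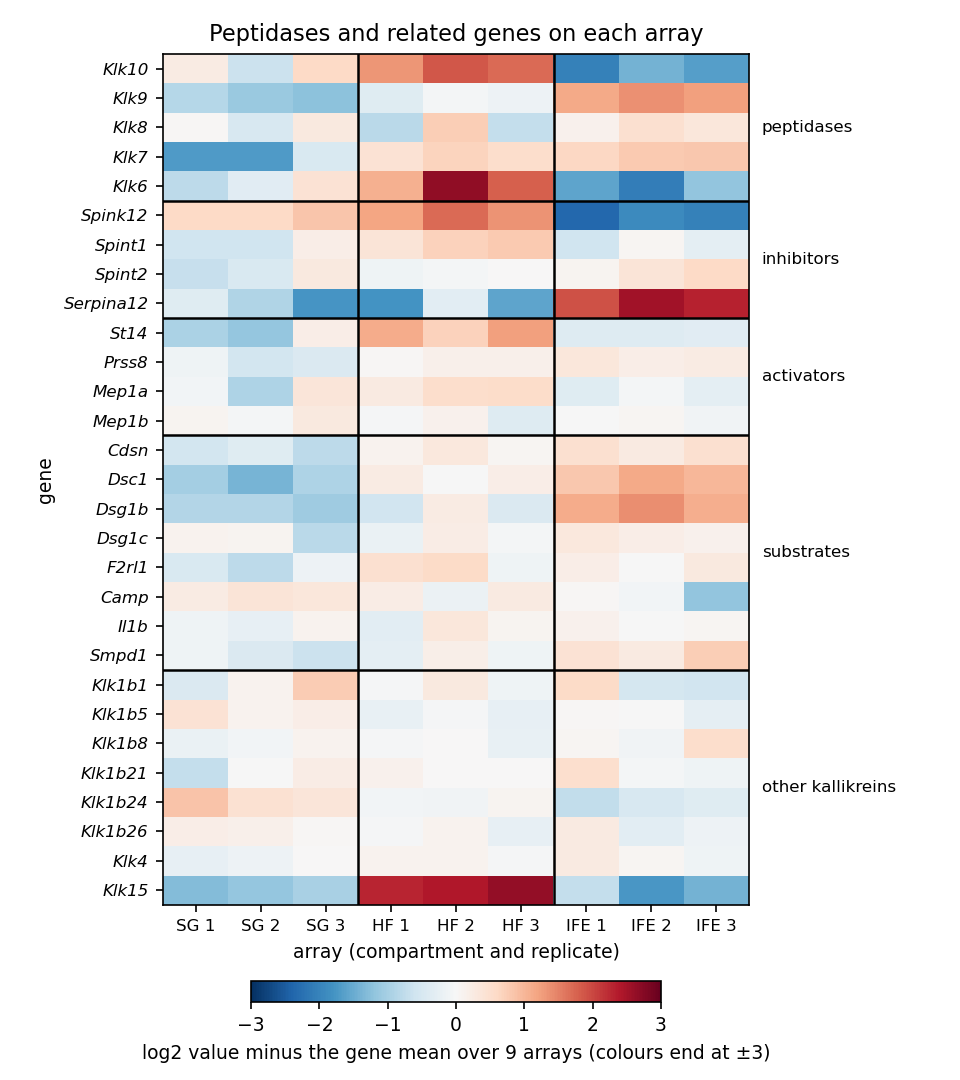
Log2 value of each gene minus its mean over the 9 arrays, as colour (red higher, blue lower, ends at 3 in either direction), for the 5 peptidases, 4 inhibitors, 4 activators, 8 substrates and 8 other kallikreins on each array. Klk10, Klk6, Spink12 and Klk15 are red in HF, Spink12 is red in SG as well, and Klk9, Serpina12, Dsc1 and Dsg1b are red in IFE.

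The genes most like each member were sought among 3544 other genes past the F test, by the root mean square difference of log2 values centred on each gene's mean over the 9 arrays. The arrays fall into 3 compartments, so any gene with the same compartment means scores well. Closest to Klk10 were Pdzrn3, a PDZ and RING finger protein (0.26), Smpdl3a, an acid sphingomyelinase-like phosphodiesterase (0.326), and Krt6a, a keratin of the companion layer and outer root sheath (0.37). Closest to Klk6 were Atp1b1, a sodium pump subunit (0.445), Dsc2, a desmosomal cadherin (0.455), and Krtap4-13, a keratin-associated protein of the hair shaft (0.46). Klk15 ranked 286 for Klk10 and 66 for Klk6.

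For Klk7 the closest genes were Gja1, a connexin of gap junctions (0.193), Clu, the chaperone clusterin (0.205), and Gjb6, another connexin (0.209). Gja1 was 1.65 lower and Gjb6 2.03 lower in SG than in IFE on the log2 scale. For Klk9 they were Daam1, a formin that acts on actin (0.172), Abcc5, a transporter (0.178), and Prrg4, a membrane protein with a Gla domain (0.18). These nearest genes of Klk9 were lower in SG than in IFE by 1.99 to 2.43.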

How the data were processed

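The authors deposited 1 table with an intensity for each of 154736 probe sets on 9 arrays, on a linear scale. The submitters' processing notes name the summary method RMA, the program suite Affymetrix Power Tools and the build mm9. Neither tool versions nor a filter on probe sets could be read from these sources. Per the labels' protocols, RNA was amplified and labelled with biotin.

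Intensities were converted to log2 as deposited, without a pseudocount and without normalizing the arrays again. Probe sets with 1 symbol in the platform annotation (146964, with 1060 of several symbols and 6712 of none) gave 14507 genes by their median, and 1754 old symbols were updated through RefSeq's GRCm38.p6 gene table, none of them to a member's name. A linear model with 1 mean per compartment was fitted to all genes on all 9 arrays with limma 3.58.1 (R 4.3.3) and eBayes, with Benjamini-Hochberg adjustment of p-values across all genes. Each SE and 95% interval is that of this fit. The code was tested on simulated data. The small number of arrays limits the precision.

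Members and lists were chosen with earlier results of these data known. The text names every measured member, up to 4 genes with the smallest F test p in each pathway list (and Klk4, outside this rule, added for its place in the cluster after its values were seen), and the 3 genes most like each member past the F test. The promoter motifs were chosen after the sequences were seen. No technical batch was given beyond the array names. Titles set the groups.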

Additional observations from a re-analysis of the deposited data

How the results depend on the processing

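Of 23 alternative settings, 21 gave a value for each of the members' 15 differences. The settings that changed the log2 minimum gave only counts of called members. Among the 315 values, 297 kept their direction and their side of the threshold, 10 were no longer called, 2 were newly called and 6 changed sign. Each of these sign changes was of a difference that was not called: for Klk8 in SG against HF, with the array letter as a block (-0.11), with the mean over probe sets (-0.076) and, in the range of -0.072 to 0.71 from leaving out 1 array, without HF replicate 1 or 3, and for Klk7 in HF against IFE with quantile normalization (0.0037) and the brightest probe set (0.18). With the brightest probe set 2 members were called in SG against IFE instead of 4, and 1 in SG against HF instead of 3. The members called in HF against IFE numbered 3, but 2 at a log2 minimum of 1.5 and 4 without HF replicate 2, alone or together with SG replicate 3. Those past the F test numbered 4, but 3 with the brightest probe set and 5 without HF replicate 2, alone or together with SG replicate 3. Of 355 values of 17 differences of other pathway genes, 340 stayed and none changed sign. Quantile normalization raised the share of higher calls in SG against IFE over all genes from 26.7% to 46.1% and left the members' calls in place. With the replicate number as a block, 4, 3 and 3 members were called in SG against IFE, HF against IFE and SG against HF, as without it. Arrays with the same number deviated from their group means with correlations of -0.02 to 0.23, and arrays with different numbers with -0.16 to 0.11. These ranges overlap, and not every array correlated best with its own number. The numbers were not taken to pair the samples, but these values do not settle whether replicates of one number share a source. Without detection calls, how far dim values such as those of Klk6 in IFE lay above background is unknown.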
